A study of Homo sapiens with 8 samples.

Results

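Mono-ADP-ribosyl transferases (MARTs) are the members of the PARP family that attach a single ADP-ribose unit from NAD to their target proteins, in contrast to the enzymes that build poly(ADP-ribose) chains. Hydrolases such as TARG1, the product of the OARD1 gene, take the unit off again. Several MART genes, PARP10, PARP12 and PARP14 among them, are known to be induced by interferon, TIPARP (also called PARP7) is a target and repressor of the aryl hydrocarbon receptor, and PARP16 sits in the membrane of the endoplasmic reticulum, where it modifies stress sensors. The mRNAs of 10 MARTs, PARP3, PARP4, PARP6, PARP8, PARP10, PARP11, PARP12, PARP14, PARP16 and TIPARP, were followed in OVCAR3 cells, a line from a human high-grade ovarian carcinoma. They were chosen by gene symbol, and each lies in 1 of the 20165 rows of the count tables.

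The study asked how ADP-ribosylation of RACK1, a protein of the small ribosomal subunit, bears on translation and stress granules, with PARP14 and TARG1 as the enzymes under study. RNA-seq libraries of rRNA-depleted lysate RNA were sequenced from 4 groups of 2 libraries each. In the first experiment, OVCAR3 cells received 30 nM of a control siRNA (siControl) or of an siRNA against OARD1 (siTARG1). In the second experiment, OVCAR3 cells carried lentiviral vectors for a doxycycline-inducible shRNA against RACK1 and for a doxycycline-inducible, HA-tagged RACK1, either wild type (RACK1-WT) or with its ADP-ribosylation sites changed (RACK1-Mut), and both groups received 1 µg/ml doxycycline. All cells were collected 48 h after transfection or doxycycline. The study's methods describe the repeats of its sequencing experiments as biologically independent. Whether the lines of the second experiment are clones is not given in the sources used here. The ribosome profiling libraries of the same lysates were not analysed here.

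The libraries held 30989049 to 42668783 exon counts. The labelled perturbations were visible in the counts: OARD1 was at 48.5 and 52.0 CPM (exon counts scaled by TMM library sizes) in siControl and at 3.11 and 3.98 in siTARG1, a log2 fold change of -3.83 ± 0.12 (SE). RACK1 was at 4622 and 4516 CPM in siControl, 1762 and 1898 in RACK1-WT and 1397 and 1454 in RACK1-Mut. All 9 markers of ovarian carcinoma epithelium on the list used lay above 1 CPM in every library, and their summed level was 2283 to 2381 CPM in siTARG1 against 3719 to 3925 in the other groups. The lower sum lay mostly in the keratins KRT8 and KRT18, with log2 fold changes of -1.08 and -1.31 in siTARG1 against siControl. Of the 9 markers 6 were called there by edgeR, 4 lower and 2 higher, beside 46.6% of the 14024 genes tested. MUC16, at 492 and 413 CPM in siControl and 239 and 320 in siTARG1, was also lower, though it was not called by DESeq2. WT1 was lower too, at 24.6 and 28.5 against 15.4 and 16.4 CPM, while KRT7 (0.44) and FOLR1 (0.55) were higher. Between RACK1-WT and siControl, where 63.3% of all genes tested were called, 8 of the 9 markers were called. The sum hid opposite changes in them. The 5 that were higher included MSLN (2.90), FOLR1 (1.96) and KRT7 (1.80). The 3 that were lower were MUC16 (-1.36), KRT18 (-0.39) and EPCAM (-0.31). Of 8 markers of leukocytes, endothelium and fibroblasts, 7 had a row, their summed level was at most 18.2 CPM, and CD3E was at 0 in every library. Above 1 CPM lay 4 of the 7 in each siRNA library and 3 in each library of the RACK1 lines. CD68, VWF and COL1A1 were above it in every library. In RACK1-WT against siControl PTPRC, below 1 CPM throughout, was called higher (2.60) and COL1A2 lower (-1.17), and in siTARG1 CD68 was called lower (-0.84). The part of either marker list in the results was not tested. In bulk libraries such as these, fewer cells with a transcript and less transcript per cell cannot be told apart.

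On GRCh37, the build of the tables, 3 of the genes lie on chromosome 3: PARP3 (ENSG00000041880) at chr3:51976361-51982883, PARP14 (ENSG00000173193) at chr3:122399686-122449687 and TIPARP (ENSG00000163659) at chr3:156391024-156424559, all on the plus strand. PARP6 and PARP16 lie on chromosome 15 at chr15:72533522-72565340 and chr15:65526798-65592956. The others are spread over the genome, with PARP4 at chr13:24995069-25086916, PARP8 at chr5:49961733-50142353, PARP10 at chr8:145051321-145086940, PARP11 at chr12:3900213-3982614 and PARP12 at chr7:139723549-139762751.

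The tables and the annotation set limits for 3 of the 10 genes. PARP6 has no row of its own: its 2 transcripts share a row with 6 others that belong to HEXA, CELF6 and 2 unnamed genes, so the level and the changes given for that row cannot be assigned to PARP6. PARP11, a MART of the nuclear envelope, had 4 to 9 exon counts per library, all or nearly all of them in the 3′ UTR, and it was too low to be tested. PARP4, the PARP of the cytoplasmic vault particle, has annotated pseudogenes, and reads that match several places were kept by the aligner, so its counts are uncertain.

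The promoters of PARP14 and PARP12 are shown because these were the members that differed most between the experiments. Of the members, 8 were found in the RefSeq promoter table (GRCh38.p14), and in these 8 only the windows of PARP14 and PARP12 held the letters GAAANNGAAA, the core of the interferon-stimulated response element, on either strand. Windows ran from 250 bases before to 50 bases after each transcription start, and 3.57% of the 35116 promoters of the table held these letters. The 250 bases before the start are printed 5′ to 3′ on the strand of the gene with the match in capitals. They lie at chr3:122680589-122680838 on the plus strand for PARP14 and at chr7:140062952-140063201 on the minus strand for PARP12.
PARP14: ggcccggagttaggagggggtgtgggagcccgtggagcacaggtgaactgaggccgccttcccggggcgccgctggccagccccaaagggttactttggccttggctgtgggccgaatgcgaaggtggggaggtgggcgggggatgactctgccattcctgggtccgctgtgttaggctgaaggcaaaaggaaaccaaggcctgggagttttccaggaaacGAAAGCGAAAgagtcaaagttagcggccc
PARP12: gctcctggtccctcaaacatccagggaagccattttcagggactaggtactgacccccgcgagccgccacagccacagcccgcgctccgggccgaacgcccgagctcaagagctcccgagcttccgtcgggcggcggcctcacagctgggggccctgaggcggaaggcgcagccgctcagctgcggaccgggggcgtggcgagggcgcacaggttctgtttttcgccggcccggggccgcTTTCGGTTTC
The match lies at bases -29 to -20 from the start of PARP14 on the strand of the gene, and at bases -10 to -1 from the start of PARP12 on the opposite strand. PARP3, PARP6, PARP8, PARP11, PARP16 and TIPARP had windows without a match, and PARP4 and PARP10 are not among the 8. The windows of PARP9 and DTX3L, which neighbour PARP14 on chromosome 3, also held the letters. In a list of 32 interferon-stimulated genes, 15 of the 23 with a window held them, and DTX3L is 1 of these 15. These counts are by gene, while the 3.57% is by window. The shorter letters GCGTG, the core of the xenobiotic response element that the aryl hydrocarbon receptor binds, were in 36.5% of all windows. Of the 12 windows of the members 7 held them, from 6 of the 8 genes, with 2 matches in TIPARP at bases -208 to -204 and -142 to -138. In PARP12, which held both motifs, the matches did not overlap. A match is a stretch of letters, not a measured binding site.

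Levels of the members were compared as CPM per kilobase of exon. PARP14, a large MART with macrodomains, stood far above the others in every library. It was at 112 and 94.0 CPM per kilobase in the siControl libraries, 113 and 114 in siTARG1, 48.3 and 49.6 in RACK1-WT and 41.7 and 45.2 in RACK1-Mut. Of the summed level of the 9 members with a row of their own, PARP14 made up 55.1% to 58.7% in the 4 siRNA libraries and 42.9% to 46.1% in the 4 libraries of the RACK1 lines.

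In siControl the order below PARP14 was PARP12 at 20.1 ± 0.0096 CPM per kilobase (SD, n = 2), PARP4 at 18.9 ± 0.96, TIPARP at 16.3 ± 0.48, PARP10 at 9.57 ± 1.75, PARP8 at 7.67 ± 0.50, PARP16 at 4.33 ± 0.045, PARP3 at 0.819 ± 0.11 and PARP11 at 0.0363 ± 0.011. No 2 neighbours in this order had overlapping libraries, and only the joint row of PARP6 overlapped with TIPARP. In siTARG1, PARP4 at 22.9 ± 0.31 CPM per kilobase and TIPARP at 17.4 ± 0.24 came before PARP12 at 17.0 ± 0.072, which overlapped with the PARP6 row. In the RACK1 lines the order was different: PARP12, next to PARP14 in siControl, was at 6.92 ± 0.19 CPM per kilobase in RACK1-WT, below PARP10 at 8.25 ± 0.33, and at 5.65 ± 0.18 in RACK1-Mut, below PARP8 at 6.16 ± 0.13. PARP16, PARP3 and PARP11 were the lowest of the members in all 4 groups. The authors' RPKM gave the same rank to all 10 genes in every group.

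**Figure D1:**
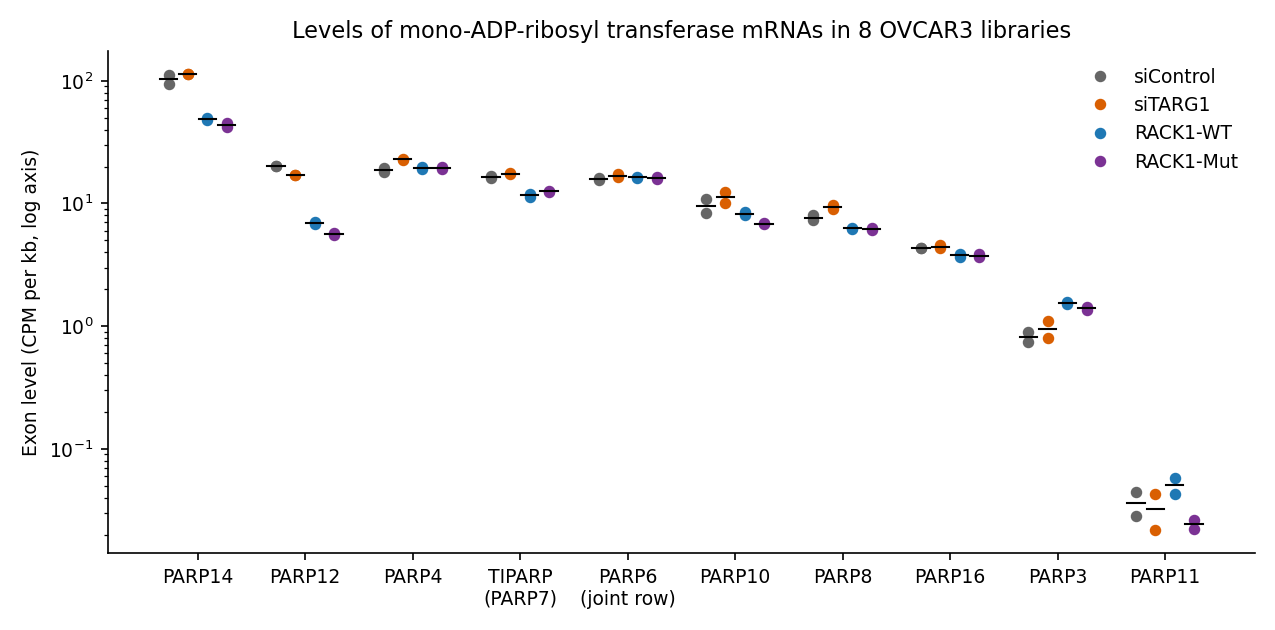
Exon level of each member in CPM per kilobase on a log axis, with 1 point per library, colours for the 4 groups and a bar at the mean of each group. PARP14 lies highest in every library, from 41.7 to 114, and PARP14 and PARP12 show the widest gap between the siRNA libraries and the RACK1 lines.

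PARP12 and PARP14 were the members that differed most in the comparison of RACK1-WT with siControl, and both were lower in RACK1-WT. This comparison crosses the 2 experiments, so the vectors, doxycycline, selection of the line, the RACK1 knockdown and the siRNA transfection cannot be told apart. It was included because it holds the widest differences among these genes, so its p-values for them are descriptive. Of 14024 genes tested with edgeR's quasi-likelihood test at an adjusted p under 0.05, 63.3% were called, with 31.9% of all genes tested higher and 31.4% lower. Of the 9 members tested, 5 were called, 1 higher and 4 lower, a share near that of all genes.

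PARP12, a zinc-finger MART of the Golgi and of stress granules, was at 76.4 and 76.5 CPM in siControl and at 26.8 and 25.8 in RACK1-WT. The groups lay far apart, and RACK1-WT held 34.3% of the siControl level. The log2 fold change was -1.54 ± 0.072 (SE), with an adjusted p of 4.5e-10. PARP14 was at 890 and 744 CPM in siControl and at 382 and 393 in RACK1-WT. Here the 2 siControl libraries differed from each other, but both were well above RACK1-WT, at 47.4% of their fitted mean. The log2 fold change was -1.08 ± 0.084 (SE), with an adjusted p of 8.4e-08.

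TIPARP fell less. Its level was 76.9 and 80.2 CPM in siControl against 57.9 and 54.5 in RACK1-WT, 71.6% of the siControl level, with a log2 fold change of -0.48 ± 0.070 (SE) and an adjusted p of 3.7e-05. PARP8 was at 53.7 and 59.0 CPM in siControl and at 45.9 and 46.4 in RACK1-WT. Its libraries did not overlap, and the log2 fold change was -0.29 ± 0.077 (SE), with an adjusted p of 0.0048. This call did not hold for the reads of the 3′ UTR, where the change was 0.42 (adjusted p = 0.081), nor without the second siControl library, where it was -0.22 (adjusted p = 0.066).

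PARP3, a nuclear MART that acts at DNA breaks, was the only member called higher. It had few reads, 89 and 56 exon counts in siControl and 122 and 131 in RACK1-WT. In CPM it was at 2.23 and 1.83 in siControl against 3.88 and 3.73 in RACK1-WT, a log2 fold change of 0.89 ± 0.19 (SE) with an adjusted p of 8.9e-04. Its 3′ UTR reads alone gave 0.52 (adjusted p = 0.17). The members that missed the threshold had log2 fold changes of -0.22 (PARP10), -0.19 (PARP16), 0.04 (PARP4) and 0.06 (the PARP6 row), with 95% intervals from -0.47 to 0.04 for PARP10, -0.41 to 0.02 for PARP16 and -0.10 to 0.19 for PARP4. Without the second siControl library PARP10 passed the threshold, at -0.39 (adjusted p = 0.0098), and without the first it was at -0.0045 (adjusted p = 0.98). On the authors' RPKM, which divides by all alignments of a library, the median gene tested was 0.41 higher (log2) in RACK1-WT than in siControl. Relative to that median, PARP12 was at -1.52, PARP14 at -1.06, TIPARP at -0.46, PARP8 at -0.26 and PARP3 at 0.89. Without that centring the RPKM gave -1.11 for PARP12, -0.66 for PARP14, -0.05 for TIPARP, 0.15 for PARP8, 0.20 for PARP10, 0.24 for PARP16 and 1.30 for PARP3, and the sign turned for PARP8, PARP10 and PARP16.

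**Figure D2:**
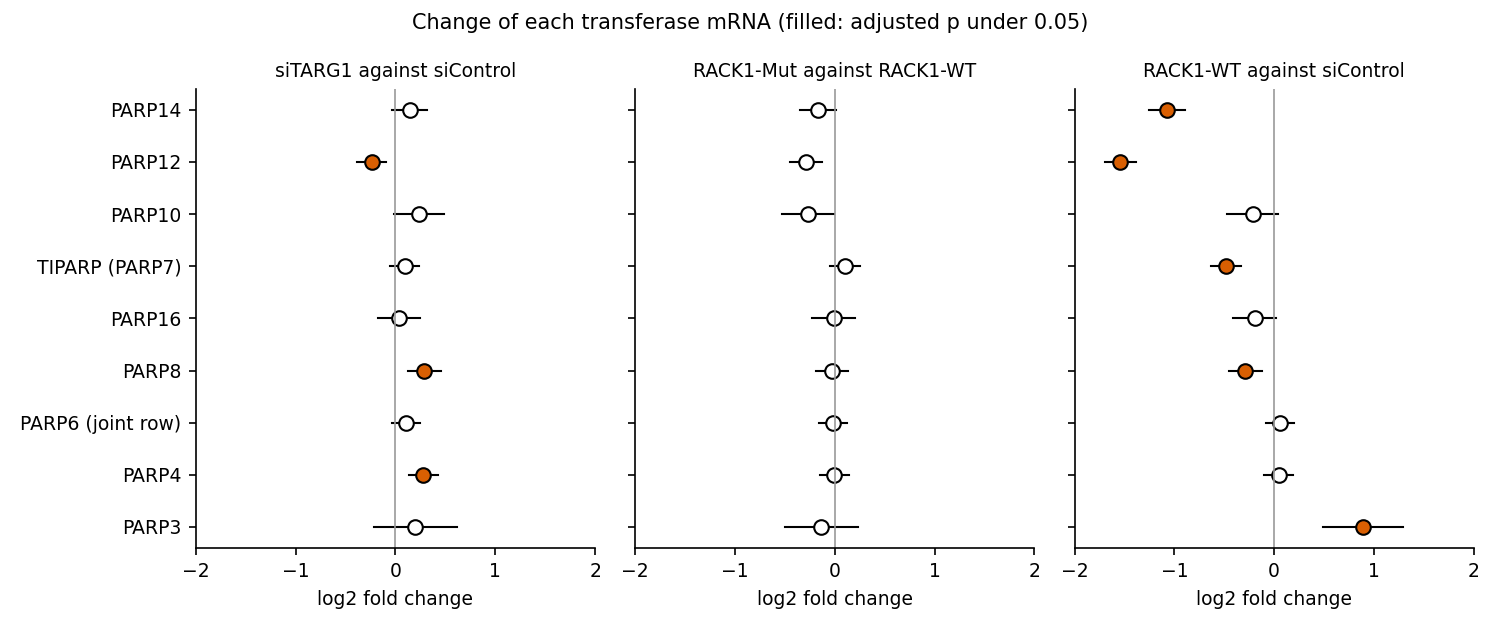
Log2 fold change of the 9 tested members in the 3 comparisons, with 95% intervals from the edgeR fit and filled circles where the adjusted p is under 0.05. PARP12 and PARP14 lie at -1.54 and -1.08 in the right panel, and no member is filled in the middle panel.

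Interferon-stimulated genes on a list of 32, which shares no gene with the members, were also lower in RACK1-WT than in siControl. Of the 30 tested, 27 were called lower and 1 higher, and their median log2 fold change was -1.18 beside -0.02 over all genes tested. The widest differences were in IFI44L (-2.09), IFIT1 (-2.04), CMPK2 (-1.99) and IFIT5 (-1.73), all of which encode proteins induced by interferon. The summed level of the list was 4726 to 5436 CPM in the 4 siRNA libraries and 1746 to 2224 in the 4 libraries of the RACK1 lines, so the 2 sets of libraries did not overlap. Among the other PARP family proteins, PARP9 (-1.17) and ZC3HAV1 (-0.89), which bind ADP-ribose and viral RNA respectively, fell, and PARP2 (1.73) and PARP1 (0.63), the poly(ADP-ribose) polymerases of the DNA damage response, rose.

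The pattern of PARP14 across libraries was closest to that of DTX3L. Among 12323 genes with a mean of at least 1 CPM, the 5 with the highest Pearson r to PARP14 in log2 CPM over the 8 libraries were DTX3L (0.998), SP100 (0.997), RIGI (0.996), NPR2 (0.996) and USP18 (0.996). DTX3L is the ubiquitin ligase partner of PARP9, SP100 is a protein of nuclear bodies, RIGI is a sensor of viral RNA, NPR2 is a receptor for natriuretic peptide and USP18 removes ISG15 from proteins. The 8 points fall into 2 sets by experiment and share the library scaling, so these correlations describe that split and carry no test. DTX3L, for example, was at 614 to 709 CPM in the siRNA libraries and at 327 to 362 in the RACK1 lines.

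**Figure D3:**
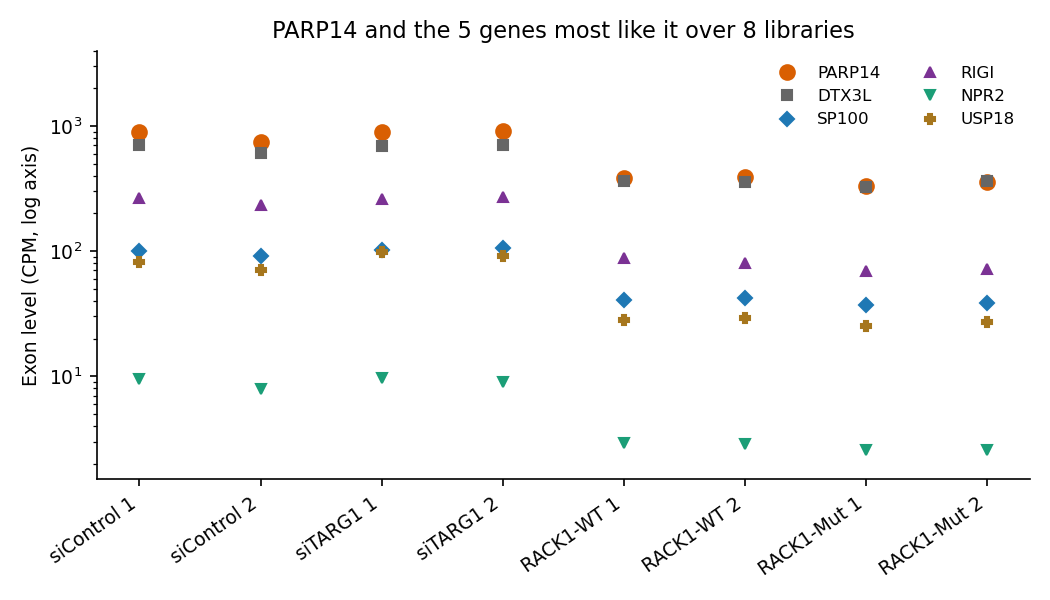
Exon level in CPM on a log axis of PARP14 and the 5 genes most like it, in each of the 8 libraries. All 6 genes drop between the siTARG1 and RACK1-WT libraries, PARP14 from 896 and 906 to 382 and 393. Among the siRNA libraries all 6 are lowest in siControl 2.

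Knockdown of TARG1, which takes ADP-ribose off glutamate and aspartate residues, went with small differences in the members. It is the comparison within the first experiment, and it shares the siControl libraries with the comparison above. Of 14024 genes, 46.6% were called, 23.5% higher and 23.1% lower. Of the 9 members tested 3 were called, a share below that of all genes: PARP4 and PARP8 were higher and PARP12 was lower in siTARG1.

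PARP4 was at 107 and 99.6 CPM in siControl and at 124 and 127 in siTARG1, and the groups did not overlap. The log2 fold change was 0.28 ± 0.067 (SE), with an adjusted p of 0.0038. PARP8 was at 53.7 and 59.0 CPM in siControl and at 66.0 and 71.6 in siTARG1, a log2 fold change of 0.29 ± 0.075 (SE) with an adjusted p of 0.0060. PARP12 moved the other way, from 76.4 and 76.5 CPM to 64.5 and 64.9, a log2 fold change of -0.24 ± 0.068 (SE) with an adjusted p of 0.010. The replicates of PARP12 were within 1 CPM of each other in both groups.

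PARP4 kept its call without any single library, with log2 fold changes of 0.23 to 0.34, while the other two lost theirs. PARP8 was no longer called without the first siControl library (0.23, adjusted p = 0.069), and PARP12 without the first (-0.23, adjusted p = 0.066) or the second siControl library (-0.23, adjusted p = 0.058). None of the 3 was called in 3′ UTR reads alone, where the errors were wider and the changes kept their direction and were about as large or larger, with 0.39 ± 0.28 for PARP4 (SE, adjusted p = 0.33), 0.45 ± 0.18 for PARP8 (SE, adjusted p = 0.089) and -0.22 ± 0.096 for PARP12 (SE, adjusted p = 0.12).

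PARP14, the MART at the centre of the study, was at 896 and 906 CPM in siTARG1 against 890 and 744 in siControl. The siTARG1 libraries were both above the siControl libraries, the nearest by a few CPM, and the log2 fold change of 0.14 (95% interval -0.04 to 0.32) did not pass the threshold (adjusted p = 0.19). Without the first siControl library it was 0.29 and passed (adjusted p = 0.020), as did PARP10 at 0.45 (adjusted p = 0.0078). Without the second siControl library they were at 0.024 and 0.067. PARP10 was at 39.3 and 30.3 CPM in siControl and at 45.0 and 36.8 in siTARG1, which overlap, and its log2 fold change was 0.23 (95% interval -0.02 to 0.48). It also passed without the second siTARG1 library, at 0.36 (adjusted p = 0.018).

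The 2 siControl libraries differed in interferon-stimulated genes as well. Of the 30 genes of the list with reads, 27 were lower in siControl 2 than in siControl 1, with a median log2 difference of -0.22, while the median over 12323 genes was 0. PARP14 and PARP10 were lower in siControl 2 too, and PARP12 was not. The part of this difference in the siTARG1 results was not tested.

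TIPARP, PARP16, PARP3 and the PARP6 row had log2 fold changes of 0.09, 0.04, 0.20 and 0.10 in siTARG1, none past the threshold. The intervals ran from -0.06 to 0.24 for TIPARP, -0.17 to 0.24 for PARP16 and -0.22 to 0.62 for PARP3. The interval of PARP3 was the widest of the members, at 56 to 115 exon counts per library. On the authors' RPKM the median gene was 0.11 higher (log2) in siTARG1 than in siControl, and PARP4, PARP8 and PARP12 were at 0.27, 0.28 and -0.24 relative to it.

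Of the interferon-stimulated list, 14 of 30 genes were called in siTARG1, 8 higher and 6 lower, which is about the 46.6% called among all genes. Their median was 0.08, and 4 were widest: ISG20 (-0.69), TRIM22 (0.68), CMPK2 (0.58) and MX2 (0.58). Among the other PARP family proteins 3 of 6 were called, all higher: PARP2 (0.68) and the tankyrases TNKS2 (0.53) and TNKS (0.48). The hydrolases other than OARD1 that were called were also higher, ADPRH (0.53) and PARG (0.36), the enzymes that split ADP-ribose from arginine and that degrade poly(ADP-ribose). Of the 8 enzymes of NAD synthesis, which make the substrate of the MARTs, NAMPT (0.69), NMNAT2 (0.65) and NMNAT3 (0.65) rose and NAPRT (-0.36) fell. Both NMNAT genes were low: NMNAT2 was at 1.23 and 1.37 CPM in siControl and 2.06 and 2.01 in siTARG1. NMNAT3 was at 1.18 and 0.814 against 1.47 and 1.71, and DESeq2 did not call it.

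The RACK1 mutant, which cannot be ADP-ribosylated at the changed sites, was compared with RACK1-WT within the second experiment. RACK1 mRNA was also lower in RACK1-Mut, at 1397 and 1454 CPM against 1762 and 1898. Its log2 fold change of -0.36 was called by DESeq2 but not by edgeR. The changed sites, the level of RACK1 and other differences between the lines cannot be told apart. No member passed the threshold. Of 14024 genes 1 was called by edgeR, 0.00713% of those tested. It was TTN, which encodes the muscle protein titin, at -2.87 (adjusted p = 0.0064), and it is named because it was the only one. An unadjusted p under 0.05 was found for 687 genes and for 2 of the 9 members, PARP12 and PARP10. With DESeq2, 17 genes and 0 members were called.

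PARP12 was at 26.8 and 25.8 CPM in RACK1-WT and at 21.0 and 21.9 in RACK1-Mut. The groups did not overlap, and the log2 fold change was -0.29 ± 0.075 (SE), with an unadjusted p of 0.0017 and an adjusted p of 0.50, which ranged from 0.14 to 1.0 over the alternatives. PARP10 was at 29.1 and 30.8 CPM against 24.6 and 25.2, a log2 fold change of -0.27 with a 95% interval from -0.53 to -0.01 and an adjusted p of 1.0. PARP14 was at 382 and 393 CPM against 330 and 358, a log2 fold change of -0.17 with an interval from -0.35 to 0.01 and an adjusted p of 1.0. These 3 members were lower in both RACK1-Mut libraries, by amounts that the test could not separate from the spread between libraries once all genes were considered. PARP3 was lower in both as well, at 3.36 and 3.56 CPM against 3.88 and 3.73, as was PARP11, which was too low to be tested.

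For the other members the intervals of the difference between RACK1-Mut and RACK1-WT were -0.15 to 0.14 for PARP4, -0.19 to 0.14 for PARP8, -0.23 to 0.20 for PARP16, -0.05 to 0.25 for TIPARP and -0.50 to 0.23 for PARP3. Of the 30 interferon-stimulated genes tested, 29 had a negative log2 fold change, with a median of -0.36 beside 0.00466 over all genes tested. None of the 30 was called by edgeR, while 22 had an unadjusted p under 0.05, beside 687 of all 14024 genes tested. DESeq2 called 8 of the 30, all lower in RACK1-Mut: IFIT1, IFIT3, MX1, IFI44, IFI44L, IFI6, HERC6 and TRIM22.

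**Figure D4:**
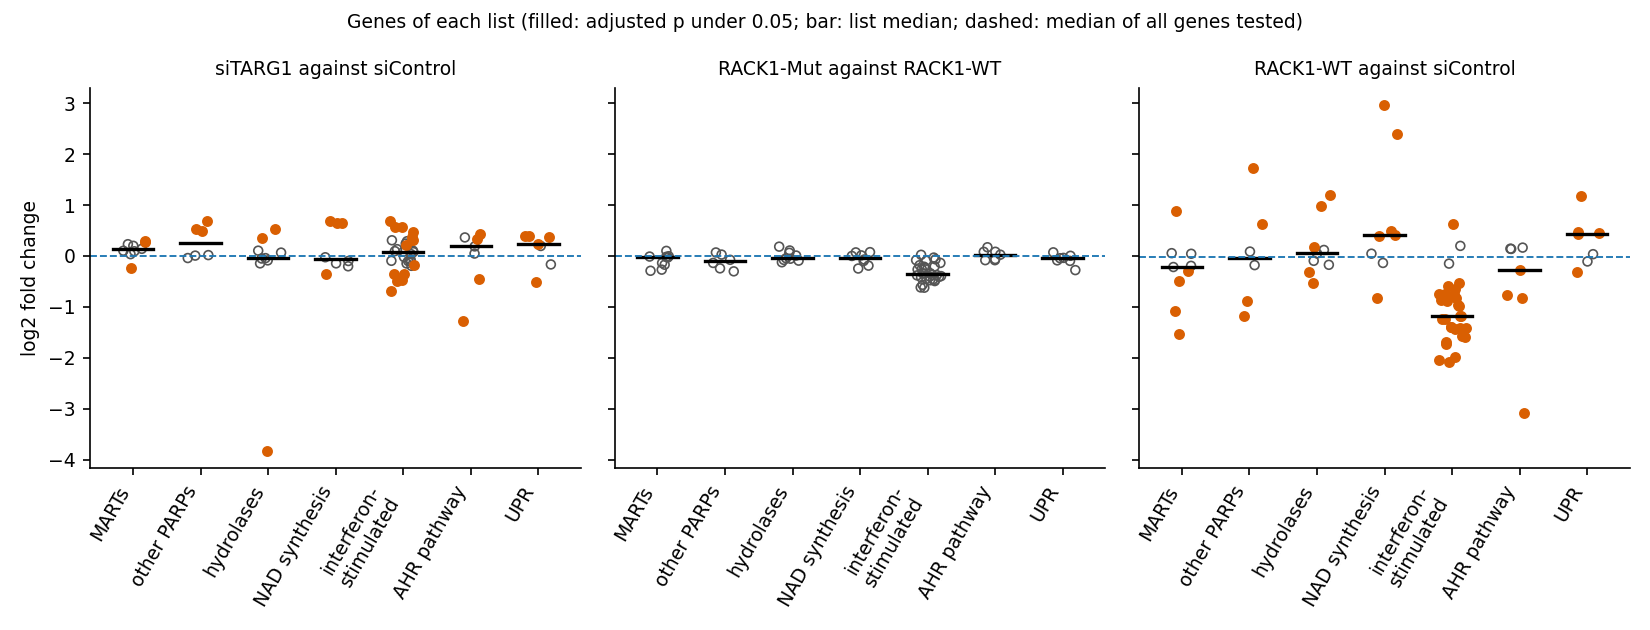
Log2 fold change of each tested gene of 7 lists in the 3 comparisons, with filled points at an adjusted p under 0.05, a bar at the median of the list and a dashed line at the median of all genes tested. The interferon-stimulated genes lie at a median of 0.08, -0.36 and -1.18 from left to right.

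The effects of siTARG1 and of RACK1-Mut, which have no library in common, were set against each other in the same fit. Of all genes 32.4% had different effects, and 3 of the 9 members did. PARP10 differed by 0.50 ± 0.17 (SE, adjusted p = 0.035), with 0.23 in siTARG1 and -0.27 in RACK1-Mut. PARP4 differed by 0.28 ± 0.095 (SE, adjusted p = 0.035) and PARP8 by 0.32 ± 0.11 (SE, adjusted p = 0.036), and in both the effect of RACK1-Mut was close to 0. The difference for PARP14, 0.31 ± 0.12 (SE), missed the threshold with an adjusted p of 0.057 and passed with DESeq2 (adjusted p = 0.040), while that for PARP12 was 0.05 (95% interval -0.17 to 0.27). None of the 3 calls was kept when any 1 library of the RACK1 lines was left out. With each of the 8 libraries left out in turn the difference kept its direction and ran from 0.24 to 0.35 for PARP4, 0.25 to 0.39 for PARP8 and 0.33 to 0.71 for PARP10. Without the second siControl library, or without the second siTARG1 library, 1 of them was left.

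Reads of the 3′ UTR and of the coding sequence were then compared within each gene, a comparison added after the data were seen. PARP8 stood out among the members in its 3′ UTR. The reads per kilobase of the 3′ UTR over those of the coding sequence had a log2 ratio of -4.14 and -3.92 in siControl, -4.08 and -3.65 in siTARG1, -3.06 and -3.28 in RACK1-WT and -3.06 and -3.26 in RACK1-Mut. All 4 libraries of the RACK1 lines were above all 4 siRNA libraries. In counts, PARP8 had 189 and 184 reads in the 3′ UTR and 1924 and 1603 in the coding sequence in siControl, against 245 and 243 in the 3′ UTR and 1179 and 1365 in the coding sequence in RACK1-WT.

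In 1 fit over both regions, with a term for each library, the 3′ UTR of PARP8 changed by 0.79 ± 0.16 (SE) more on the log2 scale than its coding sequence between siControl and RACK1-WT. The unadjusted p was 6.5e-04 and the adjusted p was 0.088, so this was not past the threshold, and leaving out single libraries gave 0.71 to 0.87. Of 12047 genes tested in this way, 0.432% were called between siControl and RACK1-WT, 0.0581% between siControl and siTARG1 and 0.0% between the RACK1 lines. No member was called by edgeR in any of the 3, and 1 of the 9 tested, PARP8, had an unadjusted p under 0.05 between siControl and RACK1-WT. PARP14 showed nearly equal changes in both regions between siControl and RACK1-WT, with a difference of 0.0026 (95% interval -0.18 to 0.19), and its 3′ UTR held 20.6% to 22.5% of its exon counts in every library. PARP12 had 27.1% to 30.2% of its counts there.

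**Figure D5:**
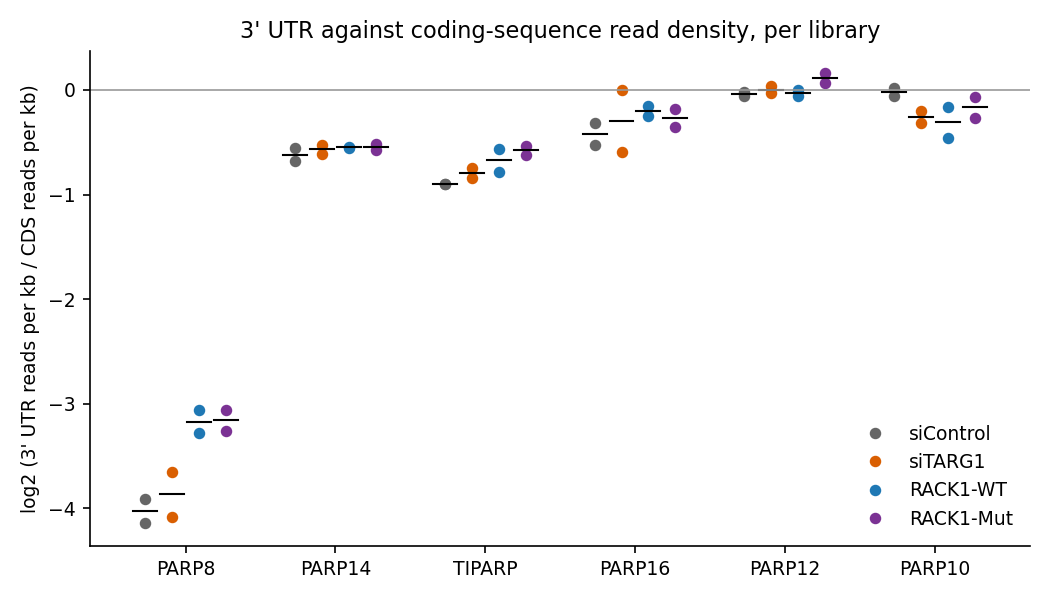
Log2 ratio of 3′ UTR to coding-sequence reads per kilobase for 6 members, with 1 point per library, colours for the groups and a bar at each group mean. PARP8 lies between -4.14 and -3.65 in the siRNA libraries and between -3.28 and -3.06 in the RACK1 lines, while PARP14 stays between -0.68 and -0.52.

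The pathways that act on single members were read beside them. For TIPARP, the list of 7 genes of the aryl hydrocarbon receptor pathway had 4 called lower and 0 higher in RACK1-WT against siControl. Of all genes tested 63.3% were called there, and 31.4% were lower. The 4 were CYP1A2 (-3.09), CYP1B1 (-0.82), AHRR (-0.78) and AHR itself (-0.28). CYP1A1, the enzyme most often used as a readout of the receptor, was at 4.24 and 4.11 CPM in siControl and at 4.93 and 4.30 in RACK1-WT, and was not called. CYP1A2, a low gene, was at 3.26 and 2.91 CPM against 0.413 and 0.313, and AHRR shares its row with a read-through transcript. In siTARG1, where 46.6% of all genes were called, AHRR (0.42) and ARNT (0.34) rose and CYP1A2 (-1.28) and NQO1 (-0.46) fell. Of these genes, AHRR was not called by DESeq2. TIPARP was at 82.9 and 84.5 CPM there against 76.9 and 80.2 in siControl.

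For PARP16, whose known targets are the stress sensors encoded by EIF2AK3 and ERN1, the level was 11.9 and 11.7 CPM in siControl, 12.4 and 11.8 in siTARG1, 10.6 and 10.1 in RACK1-WT and 10.6 and 9.92 in RACK1-Mut. Of 7 genes of the unfolded protein response, 5 were called in RACK1-WT against siControl, where 63.3% of all genes were, with DDIT3 (1.17), HSPA5 (0.47), EIF2AK3 (0.45) and ERN1 (0.43) higher and ATF4 (-0.32) lower. In siTARG1, where 46.6% of all genes were called, 5 were called as well, with ERN1 (0.40), ATF4 (0.39), HSPA5 (0.38) and ATF6 (0.24) higher and XBP1 (-0.51) lower. PARP16 was called in neither.

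Of 6 ribosomal and stress granule proteins named in the study, EIF3B (-0.72), a translation initiation factor, fell and the kinase gene AKT1 (0.33) rose in siTARG1. In RACK1-WT against siControl, RACK1 (-1.32), G3BP1 (-0.22), AKT1 (-0.22) and EIF3B (-0.18) were lower. RACK1 is both targeted by the shRNA and re-expressed from the vector in these cells, so its value is not the depth of the knockdown alone.

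Counts of the remaining lists are read beside the 63.3% of all genes called in RACK1-WT against siControl. Of the enzymes of NAD synthesis, 6 of 8 were called, 5 of them higher, and the widest differences were in NMNAT2 (2.97), NMNAT3 (2.39), QPRT (-0.82) and NAPRT (0.50). NMNAT2 and NMNAT3 were low in siControl, at 1.23 and 1.37 CPM and at 1.18 and 0.814 CPM. Among 9 hydrolases tested, 5 were called, with MACROD2 (1.21), ADPRH (0.97) and NUDT16 (0.18) higher and ADPRHL2 (-0.53) and MACROD1 (-0.32) lower. OARD1 had a log2 fold change of -0.17 and was not called there. In RACK1-Mut against RACK1-WT 0 of 87 genes on the lists other than the members was called by edgeR. An unadjusted p under 0.05 was found for 27 of the 87, beside 687 of all 14024 genes tested. DESeq2 called 9 of the 87, the 8 interferon-stimulated genes and RACK1.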

How the data were processed

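RNA-seq of 8 OVCAR3 libraries, 2 in each of 4 groups taken from the sample labels, was analysed from 1 table per library. Per the file headers and the submitters' processing notes, the authors aligned reads to hg19 (GRCh37) with Bowtie 1.1.2 and TopHat2 2.1.1 and counted alignments of 25 to 51 bases with Plastid on Gencode annotation, over exons, coding sequence and both UTRs, with each alignment placed over its central positions. The tables hold deposited estimated counts, unscaled and with fractions, beside the authors' RPKM, in which the count is scaled for region length and for every alignment of that library. Each replicate has a table of its own. Of 36595 transcript names in the rows, 94.7% matched Gencode on GRCh37, and 452 rows joined several genes.

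Exon counts were rounded and tested with edgeR 4.0.16 (limma 3.58.1, R 4.3.3): TMM, filterByExpr on the 4 groups, and its quasi-likelihood test, with p-values adjusted by Benjamini-Hochberg across the 14024 genes left and a threshold of 0.05, with 4 residual degrees of freedom. Standard errors were taken from the log2 fold change and the F of the test. Levels are TMM-scaled CPM, per kilobase of exon where genes are compared. Libraries held 30989049 to 42668783 exon counts, and PARP3 had the fewest of the members tested, 56 to 153 per library. Region terms were fitted on coding-sequence and 3′ UTR counts together. Both fits were tested on simulated data. DESeq2 1.42.0, the tool the authors name, was an alternative, as were RLE scaling, other filters, the 4 libraries of a comparison alone, a replicate block, rows summed by symbol, reads of 1 region, and leaving out each library. The region test with its alternatives was added after the data were seen.

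The members and the gene lists were chosen with earlier results of these data known. Named genes are all members, OARD1, RACK1 and AKT1, up to 4 genes of each list with the largest change past the threshold in a comparison, and the 5 genes most like PARP14. Other genes were named after their values were seen. Promoters come from the RefSeq table on GRCh38.p14. Computation outside R used Python 3.11.15.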

Additional observations from a re-analysis of the deposited data

How the results depend on the processing

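Counts over all genes rest on 2 libraries per group. With 3′ UTR reads alone, 3612 genes and 0 members were called in siTARG1, 5808 genes and 3 members in RACK1-WT against siControl, 2050 genes and 0 members for the difference of effects, and 0 genes in RACK1-Mut, in a table with fewer reads per gene. For RACK1-Mut against RACK1-WT, where 1 gene was called, DESeq2 called 17, a fit with all low genes kept 15, a minimum of 10 counts per library 0, coding-sequence reads 2 and the 4 libraries of the comparison alone 49, and leaving out single libraries gave 0 to 1 genes. The cause was not tested. No member was called there in any of the 13 alternatives.

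The replicate numbers were not taken to pair the libraries, because only 2 numbers are shared in a comparison and their deviations correlated by 0.26 between siControl and siTARG1 and by 0.028 between the RACK1 lines. With the replicate number as a block, 6559 genes were called in siTARG1, 3 in RACK1-Mut, 8908 in RACK1-WT against siControl and 4588 for the difference of effects, and the numbers of members called were the same as without it (3, 0, 5 and 3).

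Leaving out 1 library at a time gave 2 to 4 members called in siTARG1, 5 in each case in RACK1-WT against siControl and 0 to 3 for the difference of effects, where the lone library of a group was assumed to vary like the others. The fold changes of single members kept their sign and their side of the threshold in 103 of 117 values in siTARG1, 110 of 117 in RACK1-Mut, 112 of 117 in RACK1-WT against siControl and 111 of 144 for the difference of effects. The sign of 1 called value turned, that of PARP8 in RACK1-WT against siControl, which was -0.29 over exons and 0.42 in 3′ UTR reads (adjusted p = 0.081). The sign also turned for values that were not called. In 3′ UTR reads these were PARP3 (-0.065) and PARP10 (-0.0058) in siTARG1, and PARP12 (-0.0049) and TIPARP (0.024) for the difference. In coding-sequence reads they were PARP16 in siTARG1 (-0.059), for the difference (-0.074) and in RACK1-Mut (0.015), and PARP4 in RACK1-Mut (0.011). Leaving out single libraries gave -0.045 to 0.40 for PARP3 and -0.00074 to 0.063 for PARP16 in siTARG1, -0.0043 to 0.10 for PARP4 in RACK1-WT against siControl, -0.039 to 0.031 for PARP4, -0.044 to 0.0091 for the PARP6 row and -0.060 to 0.037 for PARP16 in RACK1-Mut, and -0.051 to 0.036 for TIPARP and -0.010 to 0.096 for PARP16 for the difference. The levels per kilobase were lower as RPKM for all 10 members in all 4 groups, since the authors' RPKM divides by all alignments of a library.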
